A study of Homo sapiens with 24 samples.

Results

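The clustered protocadherins are 53 protein-coding genes on the long arm of chromosome 5, taken here by symbol from GENCODE release 44. They comprise 15 alpha genes (PCDHA1 to PCDHA13, PCDHAC1 and PCDHAC2), 16 beta genes (PCDHB1 to PCDHB16) and 22 gamma genes (PCDHGA1 to PCDHGA12, PCDHGB1 to PCDHGB7 and PCDHGC3 to PCDHGC5), out of 20046 annotated protein-coding genes. Trimethylation of lysine 4 on histone H3 (H3K4me3), a mark of promoters that are active or poised, was profiled by MINT-ChIP, a multiplexed chromatin immunoprecipitation in which chromatin samples are barcoded and pooled before the antibody step. The cells were EndoC-βH3, an established human pancreatic beta cell line with the genotype label WT. The line carries immortalizing transgenes, the SV40 large T antigen and the telomerase gene, that a tamoxifen-activated Cre recombinase can remove. The 4 non-senescent samples were control cells, and the 4 senescent samples had received 4-hydroxytamoxifen for 3 weeks, so that removal of the transgenes, drug exposure and the senescent state cannot be told apart between them. Each sample held 500000 cells. The dose of the drug differs between the labels and the methods text and is not given here.

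The deposited table describes 97545 genomic regions. For each region it holds the authors' mean normalized count, a single mean over the H3K4me3 samples of both states, and that mean is the level reported below. Values of single samples were not analysed here, the depth of each sample is unknown, and no spread between replicates can be given. All differences below are therefore descriptions of the authors' means, without a test, and none of them compares senescent with non-senescent cells. In such bulk chromatin, a mark present in fewer cells and a mark carried at fewer nucleosomes per cell cannot be told apart. The labels do not say whether the samples of a state came from separate cultures.

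Protocadherins are adhesion proteins of the cadherin superfamily that sit in the plasma membrane and bind like molecules on neighbouring cells. In the alpha and gamma clusters each gene has a variable first exon with a promoter of its own, which is spliced to constant exons shared by the whole cluster, whereas each beta gene lies on a single exon. In neurons individual cells use different, largely random choices of these promoters, which gives each cell a surface identity, and CTCF and cohesin take part in that choice by looping promoters to distant enhancers. The C-type genes, PCDHAC1, PCDHAC2, PCDHGC3, PCDHGC4 and PCDHGC5, differ in being expressed more uniformly. Many variable promoters carry a conserved sequence element around the letters CGCT, upstream of the start site.

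Promoter sequence was available for 47 members as RefSeq windows of 300 bases (GRCh38.p14), with 250 bases before and 50 after the start, and it showed a related element in all 3 clusters. PCDHA3, PCDHA13, PCDHB6, PCDHB11, PCDHGA12 and PCDHGC5 were not matched. Words of 8 bases, searched on both strands, were ranked by their share of a cluster's windows minus their share of the windows of 15345 protein-coding genes. The leading word of the alpha cluster was ATGTCGCT, in 9 of 13 windows, against 0.274% of all these windows. In the beta cluster it was GTGGCGCT, in 13 of 14 windows against 1.56%, and the window without it was that of PCDHB1. In the gamma cluster it was GCCGCTGT, in 11 of 20 windows against 1.88%. Each of these words contains CGCT, and every match to them in a member lay on the strand of the gene. An overlapping word without those letters was in as many windows of the alpha cluster (GATGTCGC, 9 windows) and of the beta cluster (GCGCCACC, 13 windows). These words ranked lower because they were more frequent among all promoters. At least 1 of the 3 words was found in 33 of 47 members (70.2%) and in 3.70% of all protein-coding windows. As the words were chosen for that difference in these same windows, the contrast is in part set by the choice. The following stretches of 60 bases, all on the plus strand of chromosome 5, pair a strongly and a weakly marked gene of each cluster and add the most strongly marked member and a C-type gene, with the shared word in capitals.
PCDHA1: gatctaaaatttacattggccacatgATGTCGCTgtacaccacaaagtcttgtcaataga
PCDHA8: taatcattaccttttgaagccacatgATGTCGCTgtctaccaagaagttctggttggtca
PCDHB13: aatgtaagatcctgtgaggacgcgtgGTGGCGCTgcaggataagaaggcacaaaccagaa
PCDHB12: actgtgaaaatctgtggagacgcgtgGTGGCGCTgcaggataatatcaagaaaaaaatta
PCDHGB5: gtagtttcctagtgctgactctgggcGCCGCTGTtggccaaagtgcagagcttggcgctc
PCDHGB4: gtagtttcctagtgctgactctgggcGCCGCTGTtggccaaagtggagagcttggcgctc
PCDHGA10: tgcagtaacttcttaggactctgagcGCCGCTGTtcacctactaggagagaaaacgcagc
PCDHGC3: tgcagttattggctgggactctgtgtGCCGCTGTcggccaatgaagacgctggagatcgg

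In the hg38 build these stretches lie at chr5:140786072-140786131 (PCDHA1), chr5:140841116-140841175 (PCDHA8), chr5:141213851-141213910 (PCDHB13), chr5:141208629-141208688 (PCDHB12), chr5:141397851-141397910 (PCDHGB5), chr5:141387605-141387664 (PCDHGB4), chr5:141412919-141412978 (PCDHGA10) and chr5:141475868-141475927 (PCDHGC3). All of them lie before the RefSeq start of their gene. PCDHA1 and PCDHA8 were identical at 33 of 60 bases, PCDHB13 and PCDHB12 at 42, and PCDHGB5 and PCDHGB4 at 59. The H3K4me3 levels of the same pairs were 27.5 and 2.39, 34.2 and 3.87, and 27.1 and 6.94 mean normalized counts. The promoter regions of PCDHA8 and PCDHGB4 do not reach their printed stretch, so these levels were measured beside it. Those of the other genes cover it.

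A promoter region was found for 52 of the 53 genes (98.1%), against 75.3% of all protein-coding genes. This difference depended on the weakest regions. At 5 mean normalized counts or more the shares were 71.7% and 69.9%, and at 10 or more 41.5% and 64.9%. Regions were sought up to 2 kb on either side of any annotated start site of a gene, and the most strongly marked of them is its promoter region. The 52 genes had 52 distinct promoter regions. The windows held 91 regions in all, of which 3 lay in the windows of 2 neighbouring genes, and no region served as the promoter region of 2 members. PCDHB14 shared its region with ENSG00000279983, an overlapping protein-coding entry that is not a protocadherin by symbol. Other promoter regions lay within 2 kb of the annotated start of a long non-coding RNA. Most were in the beta cluster, at PCDHB2, PCDHB3, PCDHB6 to PCDHB11, PCDHB15 and PCDHB16. The rest were at PCDHA3, PCDHA5, PCDHA6, PCDHA11 to PCDHA13, PCDHAC2 and PCDHGB1. At these regions the mark cannot be assigned to the protocadherin start alone. PCDHGC5, the last C-type gene, had no region in its window. The nearest region, chr5:141486440-141486940, lay 2141 bp from its start site and had a level of 0.625 mean normalized counts.

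Most of these promoters were weakly marked. The median level of the 52 was 8.89 mean normalized counts, with a range from 1.63 at PCDHB4 to 73.7 at PCDHGA10, against a median of 49.2 and quartiles of 21.3 and 88.6 over the 15090 protein-coding genes with a region. The median member stood at percentile 12.5 of all these promoters. Only PCDHGA10, PCDHB1 and PCDHGC3 reached the overall median, and 35 members lay below the lower quartile. PCDHGC3, at 49.6, and PCDHGA7, at 48.8, lay close to that median on either side. Per unit length, the median over members was 8.57 mean normalized counts per kb of region, against 18.99 over all promoters. The summed level of the 52 regions was 845, of which the 10 highest held 50.8% and the 26 lowest 15.8%.

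**Figure D1:**
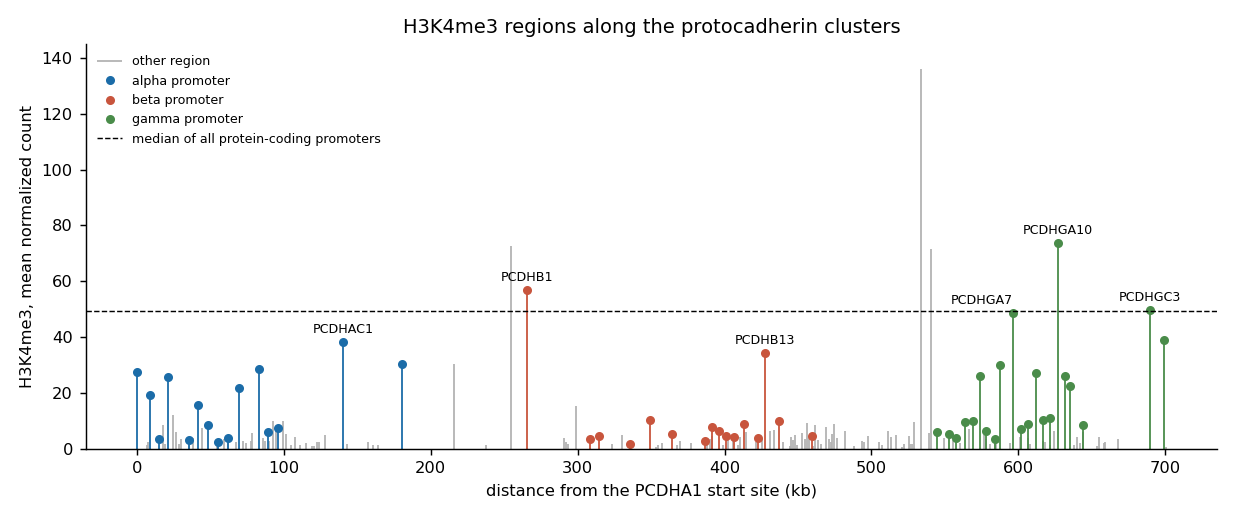
H3K4me3 regions along the 3 protocadherin clusters, as the authors' mean normalized count (vertical axis) against the distance from the PCDHA1 start site in kb (horizontal axis). Coloured points stand for the promoter regions of members, drawn at the start site, and grey lines for all other regions, drawn at their centre. The dashed line is the median of all protein-coding promoters. Among the members, only PCDHGA10 (73.7), PCDHB1 (57.0) and PCDHGC3 (49.6) reach it.

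The alpha genes had a median level of 15.7 mean normalized counts, from 2.39 to 38.4, and none of the 15 reached the median of all promoters. PCDHAC1 was the highest, at 38.4 mean normalized counts over 2080 bp (chr5:140925469-140927549), or 18.4 per kb. PCDHAC2, at 30.5 (chr5:140965005-140967699), PCDHA11, at 28.6 (chr5:140868729-140870186), PCDHA1, at 27.5 (chr5:140785653-140787511), and PCDHA4, at 25.9 (chr5:140806161-140808552), followed. These 5 regions all covered the start site and reached into the coding part of the variable exon. Per kb the order differed, with PCDHA11 first at 19.6 mean normalized counts per kb, the only alpha gene above the median density of all promoters, and PCDHAC2 at 11.3. The weakest alpha promoters were PCDHA8 (2.39), PCDHA5 (3.06), PCDHA3 (3.56), PCDHA9 (3.80) and PCDHA12 (6.09), and none of these 5 regions covered the start site. In between lay PCDHA13 (7.32), PCDHA7 (8.44), PCDHA6 (15.7), PCDHA2 (19.3) and PCDHA10 (21.9). Strong and weak promoters were interspersed along the cluster. Among 14 pairs of neighbouring genes, 8 differed by 2-fold or more in level, and the widest step was between PCDHA4 at 25.9 and PCDHA5 at 3.06, an 8.46-fold difference.

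The beta genes were the most weakly marked, with a median of 4.93 mean normalized counts, or 7.68 per kb. The cluster opened with its strongest member. PCDHB1, which lies apart at the alpha side of the cluster and was the only one of the 14 beta genes with a sequence window that lacked the shared word, had 57.0 mean normalized counts (23.6 per kb) over chr5:141049953-141052366. Its neighbour PCDHB2 had 3.49, a 16.4-fold difference. PCDHB13 was second, at 34.2 (18.8 per kb) over chr5:141213732-141215556, and the other 14 beta genes lay between 1.63 and 10.3. PCDHB5 (10.3), PCDHB14 (9.98) and PCDHB11 (8.81) followed PCDHB13. The weakest were PCDHB4 (1.63), PCDHB7 (2.73), PCDHB2 (3.49), PCDHB12 (3.87) and PCDHB10 (4.26). PCDHB9 (4.47), PCDHB15 (4.58), PCDHB3 (4.65), PCDHB6 (5.21), PCDHB16 (6.35) and PCDHB8 (7.96) lay between these groups. Only PCDHB1 and PCDHB13 exceeded the lower quartile of all promoters.

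The gamma genes had a median of 10.5 mean normalized counts, or 9.41 per kb, and spanned the widest range in absolute terms. PCDHGA10 had the highest level of any member, 73.7 mean normalized counts over chr5:141412880-141414815. Its density of 38.1 per kb stood at percentile 93.1 of all protein-coding promoters. PCDHGC3 had 49.6 (23.9 per kb, chr5:141475260-141477331), PCDHGA7 had 48.8 (21.8 per kb, chr5:141382268-141384505), PCDHGC4 had 38.9 (18.8 per kb, chr5:141484004-141486073) and PCDHGA6 had 29.9 (17.8 per kb, chr5:141373607-141375287). The weakest were PCDHGB3 (3.62), PCDHGA3 (3.90), PCDHGA2 (5.36), PCDHGA1 (6.02) and PCDHGA5 (6.45). The genes next to PCDHGA10 were at 11.1 (PCDHGB6) and 25.96 (PCDHGB7). PCDHGB4 (6.94), PCDHGA12 (8.65), PCDHGA8 (8.97), PCDHGB1 (9.69), PCDHGA4 (9.78) and PCDHGA9 (10.5) lay at or below the cluster median, and PCDHGA11 (22.6), PCDHGB2 (25.9) and PCDHGB5 (27.1) above it. The 12 gamma A genes and the 7 gamma B genes, which differ in the sequence of their variable exons, had medians of 9.37 and 11.1 mean normalized counts, or 9.30 and 8.13 per kb.

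**Figure D2:**
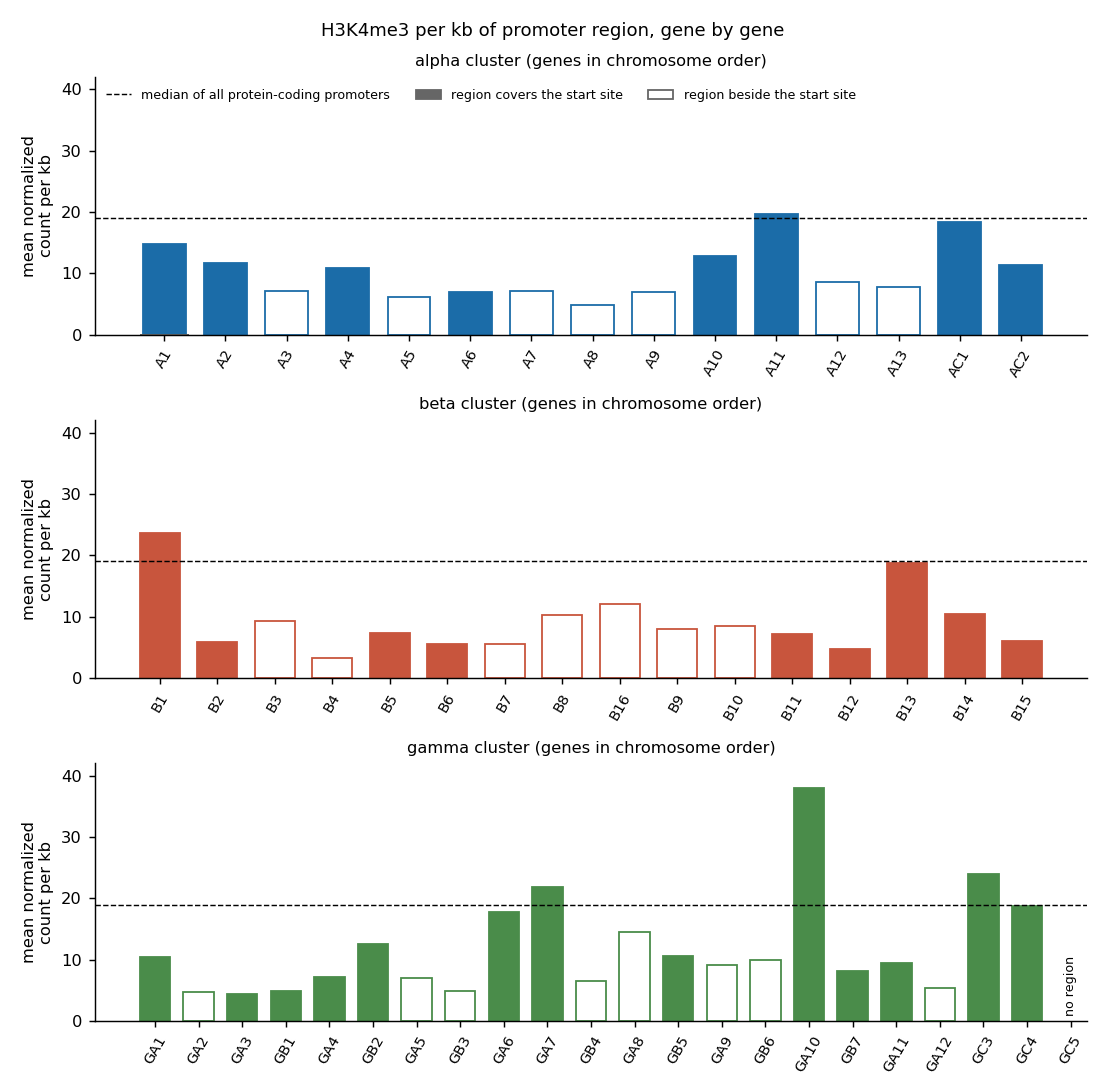
Mean normalized count per kb of promoter region (vertical axis) for every gene of the alpha, beta and gamma clusters in chromosome order (horizontal axis, symbols without PCDH). Filled bars mark regions that cover the annotated start site, open bars regions beside it, and the dashed line the median of all protein-coding promoters (18.99 per kb), which PCDHGA10 exceeds by the widest margin, at 38.1 per kb.

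Of the 5 C-type genes, 4 stood above most of the other members, and PCDHGC5 had no region. The 4 with a region had levels from 30.5 to 49.6 and a median of 38.6 mean normalized counts (18.6 per kb, from 11.3 to 23.9, and percentile 41.2 by level), whereas the 48 members that are not C-type had a median of 8.55 (8.08 per kb). All 4 lay among the 8 highest members. Without the C-type genes the medians of the alpha and gamma clusters were 8.44 and 9.78 mean normalized counts. PCDHGC3 and PCDHGC4 held the shared gamma word, while the shared alpha word was not in the windows of PCDHAC1 and PCDHAC2.

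Strong and weak members also differed in where the region lay. The promoter region covered the canonical start site in 30 members and lay beside it in 22. Regions over the start site had a median width of 1841 bp, a median level of 24.2 mean normalized counts and a median of 10.7 per kb. Regions beside it had a median width of 663 bp, a level of 5.73 and 7.11 per kb. In the alpha cluster these groups did not overlap in level, since the 8 regions over a start site ranged from 15.7 to 38.4 and the 7 others from 2.39 to 8.44. They overlapped in the beta cluster (3.49 to 57.0 against 1.63 to 7.96) and in the gamma cluster (3.90 to 73.7 against 3.62 to 11.1). Levels and widths were not split in this way over all protein-coding promoters. Whether these differences are particular to the members therefore cannot be said. The separation in the alpha cluster holds only for the strongest region of each window. At PCDHA5 and PCDHA9 a weaker region, at 2.81 and 3.58, did cover the start site. Of the 22 regions beside a start site, 8 lay upstream and 14 downstream, at a median distance of 692.5 bp, and the farthest, 2125 bp upstream of PCDHGA8, was reached through another annotated start of that gene. Among the 30 regions over a start site, 21 extended farther downstream than upstream, with medians of 1214.5 bp downstream and 511.5 bp upstream, and 27 reached the gene's own coding sequence. Counting any region of the window, the start site was covered in 36 of 53 members (67.9%), against 53.0% of all protein-coding genes, and among genes with a region the shares were 69.2% and 70.4%.

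**Figure D3:**
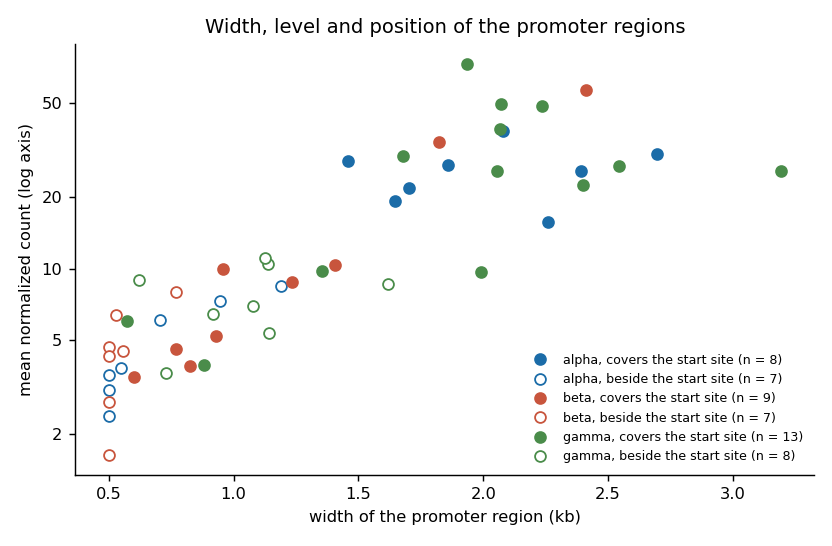
Level of each member's promoter region (vertical axis, mean normalized count, log axis) against its width in kb (horizontal axis), coloured by cluster. Filled points are the 30 regions that cover the start site and open points the 22 beside it, which lie at 11.1 mean normalized counts or below.

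Level and width rose together across members (Spearman's rho 0.89 over 52 genes, which share the same libraries and the same peak finding). Since the level sums counts over the region, the wider regions have more positions to count from. The correlation of width with the count per kb was 0.52. The regions were poorer in G and C than promoters at large, with a median GC content of 44.8% against 51.3%, while the ratio of observed to expected CpG was 0.57 against 0.59. Across the 52 members, the correlation of GC content with level was 0.42, and with the level per kb 0.39. Within the alpha, beta and gamma clusters it was 0.65, 0.17 and 0.30 with level, and 0.57, 0.41 and 0.26 with the level per kb. The alpha cluster showed the widest range of GC content, from 32.4% at PCDHA12 to 58.3% at PCDHAC1. The part of base composition in the levels was not tested.

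The members resemble each other in sequence, which limits how well reads can be placed. Of all stretches of 32 bases in the promoter regions, 92.2% occurred once in the hg38 genome, against 96.0% in 610 other promoter regions of chromosome 5. The share was under 90% in 14 of the 52 member regions and in 72 of the 610 others, and the median region had 98.9% and 99.3%. It was lowest for PCDHB13, the second strongest beta gene, where only 45.6% of stretches occurred once and 961 of the 976 repeated ones recurred at PCDHB8. PCDHB8 itself had 68.9%, and 197 of its 230 repeated stretches recurred at PCDHB13. The levels of these genes, 34.2 and 7.96, are therefore uncertain, as it is not stated how reads with several placements were treated. For PCDHGB5 (78.8%) all 532 repeated stretches recurred at PCDHGB4, and for PCDHGB6 (75.8%) all 265 recurred at PCDHGB7. The shares for PCDHB10 (70.6%), PCDHGA12 (73.2%), PCDHGA9 (78.6%), PCDHA6 (79.7%) and PCDHA13 (82.7%) also make those levels less certain. Of the 10 strongest members, PCDHGA10 had 97.3%, PCDHGA7 99.4%, PCDHGA6 99.6% and PCDHB1, PCDHGC3, PCDHGC4 and PCDHAC2 100.0%, while PCDHAC1 had 93.9%, PCDHA11 88.2% and PCDHB13 the 45.6% given above.

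The 33 members that hold 1 of the 3 words had a median level of 8.97 mean normalized counts, from 1.63 to 73.7, and the 14 members with a window but without a word had 24.2, from 3.62 to 57.0. By cluster, members with and without the word had medians of 15.7 and 29.6 among the alpha genes (9 and 4) and of 11.1 and 9.78 among the gamma genes (11 and 9). The 13 beta genes with the word had a median of 4.58, and PCDHB1, without it, had 57.0. A word in the window was often outside the measured region. The promoter region itself held the word in 18 members, with a median of 20.6 (3.49 to 73.7), and missed it in 15, with a median of 6.09 (1.63 to 11.1), among them PCDHA8, PCDHB4 and PCDHGB4. All 18 regions with the word covered the canonical start site, and all 15 others lay beside it. This split therefore repeats the split by start site, and the part of the word in the levels was not tested. The first base of the word lay 42 to 97 bases before the RefSeq start in 31 members, and at 15 and 1 bases before it in PCDHB5 and PCDHB8. The core letters CGCT alone, sought on the gene's strand between 100 and 30 bases before the start, a stretch chosen after the words had been seen, were found in 43 of 47 members (91.5%) and in 26.5% of all protein-coding windows. The exceptions were PCDHA9, PCDHGB2, PCDHB5 and PCDHB8. The letters TATAAA, sought on both strands over the whole window, were found in 6 of 47 members (12.8%) and in 9.63% of all windows. A match to such letters is not evidence of a bound factor.

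**Figure D4:**
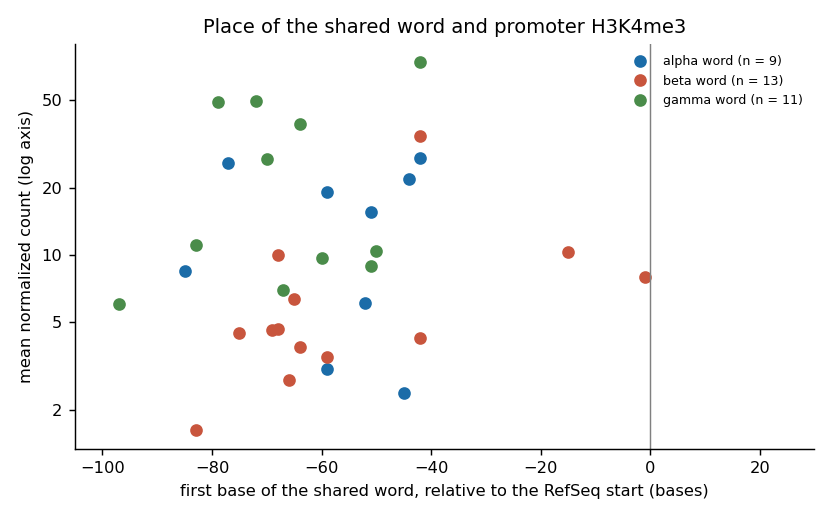
Level of the promoter region (vertical axis, mean normalized count, log axis) against the place of the first base of the cluster's shared word, in bases from the RefSeq start (horizontal axis), for the 33 members that hold it. In 31 members the word lies 42 to 97 bases before the start, and levels from 1.63 to 73.7 occur within that range. The promoter region holds the word in 18 of the 33.

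The protocadherin clusters were rich in regions although their promoters were weak. From 2 kb before the first start site to 2 kb after the last, chr5:140784140-141491081, the table held 185 regions, or 26.2 per 100 kb, against a mean of 3.16 and a median of 2 over 30870 windows of 100 kb across the genome. Only 70 windows (0.227%) held 26 regions or more, of which 45 were on chromosome 19 and 4 touched the protocadherin span. The density was 29.3 per 100 kb in the alpha, 26.3 in the beta and 29.5 in the gamma cluster. Besides the 52 promoter regions, 39 regions lay within 2 kb of a member's start site, with a median level of 2.81 mean normalized counts. The other 94 lay farther away, with a median of 3.16. Without the regions at TAF7 and SLC25A2, the remaining 92, farther than 2 kb from every protein-coding start, had a median of 2.996, against 3.49 for the 74442 such regions of the whole table.

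Other gene families placed these levels in context. The HOX genes, which are also arranged in clusters, had a region in 16 of 39 cases and a median of 2.05 mean normalized counts (4.10 per kb). The zinc finger genes of chromosome 19, a family that lies largely in tandem, had a region in 226 of 240 cases and a median of 56.0 (19.9 per kb). The median level of the clustered protocadherins lay between these, while their share with a region (98.1%) was above both. At a minimum of 5 mean normalized counts that share, 71.7%, was below the 91.7% of the zinc finger genes and above the 7.69% of the HOX genes. Protocadherins outside the clusters and their relatives had a region in 16 of 19 cases and a median of 36.3 (13.3 per kb), led by PCDH17 at 194, PCDH9 at 152, PCDH7 at 120 and PCDH10 at 117, which belong to the non-clustered delta group. The genes flanking the clusters within 500 kb had a region in 29 of 30 cases, over 23 distinct regions, with a median of 51.4. Regulators of the clusters, a list of CTCF, cohesin, DNA methylation and heterochromatin genes, all had a region (22 of 22), with a median of 56.8. CTCF, the factor that binds the variable promoters, was at 43.0, NIPBL, which loads cohesin, at 160, and SMCHD1, a silencer of the clusters in other cell types, at 69.3.

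**Figure D5:**
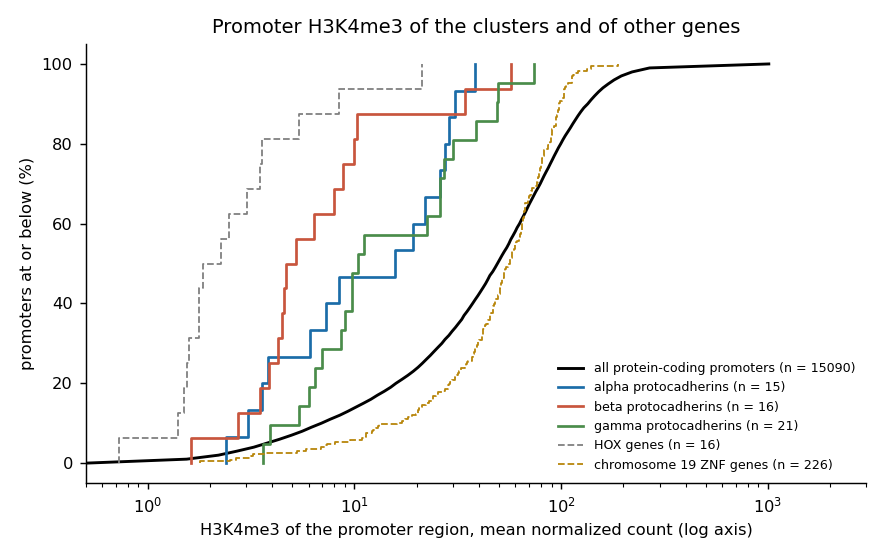
Share of promoters at or below each level (vertical axis, %) against the mean normalized count of the promoter region (horizontal axis, log axis), for the alpha, beta and gamma protocadherins, HOX genes, zinc finger genes of chromosome 19 and all protein-coding genes with a region. The protocadherin medians of 15.7, 4.93 and 10.5 lie between those of the HOX genes (2.05) and of all promoters (49.2), and the curves cross that of all promoters at the lowest levels.

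The cell type label was checked on the same scale. Of 16 beta cell markers 15 had a region, with a median of 203 mean normalized counts, including PAX6 at 665, ISL1 at 588 and NEUROD1 at 387, and MAFA had none. The hormone genes INS and IAPP were at 24.7 and 6.94 and KCNJ11, a subunit of the ATP-sensitive potassium channel, at 27.7. Of 4 acinar markers 2 had a region, at 1.12 and 4.17, of 4 fibroblast markers 2, at 4.37 and 9.36, and neither of the leukocyte markers PTPRC and CD3E had any. The duct markers CFTR and KRT19 were at 3.54 and 24.1, and of the endothelial markers PECAM1 was at 17.6 and CDH5 had no region. The 5 neuronal genes had a median of 23.6. SNAP25, which beta cells are known to share with neurons, was at 169 and MAP2 at 109, while SYN1 was at 23.6, TUBB3 at 14.996 and RBFOX3, a marker of mature neurons, at 11.0.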

How the data were processed

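MINT-ChIP data for H3K4me3 comprised 4 samples of each state. The 16 samples of the same experiment for H3K27me3 and H3K9me3 were not used here. The authors' processing notes name hg38, bcl2fastq, Bowtie, SAMtools, HOMER, SICER, DESeq2 and deepTools. How regions were merged between samples and reads counted is not given in the sources used here. The signal deposited by the authors is the mean normalized count of each region over samples, as DESeq2 gives it. The deposited table further holds the authors' log2 fold changes, their standard errors, scores and p-values for the states. These columns are the authors' own comparison and were not used, so no contrast, test or error could be computed.

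Start sites came from GENCODE release 44. The members and lists were chosen with earlier results of these data known. All members are named, with coordinates for the strongest of each cluster and for the C-type genes, and lists are described by counts and medians. Percentiles are over protein-coding genes with a region. Region coordinates are as deposited. Promoter windows came from RefSeq, the first listed window of each gene. Stretches of 32 bases were counted on both strands of hg38. The assignment recovered 200 of 200 simulated promoter values on chromosome 2. Alternatives concerned the window, start sites, choice of region, minimum level, stretch length and word length. Python 3.11.15, numpy 2.4.6, pandas 2.3.3, scipy 1.17.1 and matplotlib 3.10.9 were used.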

Additional observations from a re-analysis of the deposited data

How the results depend on the processing

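No alternative could be set against a test, as the values are means over samples. No paired analysis was possible because the table holds 1 mean per region and no value per sample, and for the same reason no replicate could be left out. Of 69 recomputed counts, medians and shares over genes, 50 were counted as unchanged and 19 as moved. The unchanged ones stayed within 1.5-fold of those reported. They included all under windows of 1 kb or 500 bp, the canonical start site, the nearest region or each region counted once. Within that limit, the number of members at or above the median of all promoters went from 3 to 2 at 1 kb, at 500 bp and with a minimum of 5. It went to 4 with the nearest region or each region counted once. The moved ones changed by over 1.5-fold, except the counts of the leading word over all members and in the gamma cluster, given below. Levels of single genes moved by over 1.5-fold in 1 gene at 1 kb, 4 at 500 bp, 1 with the canonical start, 6 with the nearest region, 15 at 5 kb and 19 when regions were summed. At 500 bp 47 members had a region, and PCDHA3, PCDHA7, PCDHB3, PCDHB4 and PCDHB16 lost theirs. PCDHGA9 went from 10.5 to 2.76 at 1 kb and with the nearest region, and PCDHGA8 from 8.97 to 3.72 with the canonical start. At 5 kb PCDHGA1 went from 6.02 to 71.4 and PCDHGB4 from 6.94 to 48.8. A window of 5 kb, in which 53 members drew on 40 distinct regions, moved the median of all members to 19.3, that of the gamma genes to 28.5 and the number at or above the median of all promoters to 8. Summing all regions of a window raised the distinct regions to 91 and the medians to 14.2 (all members), 8.79 (beta) and 16.9 (gamma), with 1 member at or above the overall median. A minimum of 5 mean normalized counts moved the median of all members to 13.4 and of beta genes to 9.39. A minimum of 10 left 22 members with 22 regions, 1 of them at or above the overall median, and medians of 27.3 (all), 26.7 (alpha), 34.2 (beta) and 27.1 (gamma), since it removes the weak members. With words of 7 bases AAATAAA, without the letters CGCT, led over all members, in 17 of them, and CGCTGTT in the gamma cluster, in 13. The comparison within clusters was added after the data were seen. Counting precision cannot be given, as the depth of the libraries is unknown.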

Other observations

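The strongest H3K4me3 between the clusters lay outside protocadherin promoters. Besides the members, 5 regions of the span exceeded 12 mean normalized counts. The largest, chr5:141317629-141322838, lay at TAF7, a subunit of the general transcription factor TFIID whose gene sits between the beta and gamma clusters, and had a level of 136 mean normalized counts (26.1 per kb). A second region beside it, chr5:141326043-141327551, at a start of the long non-coding RNA gene ENSG00000272070, had 71.4 (47.3 per kb). Between the alpha and beta clusters, chr5:141039245-141041815 at the long non-coding RNA gene ENSG00000288892 had 72.8, and chr5:141001248-141002799, with no annotated start within 2 kb, had 30.4. A region of 15.5 at chr5:141084258-141086283 lay at the pseudogene ENSG00000289752. These regions were singled out after their values were seen.

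The pseudogenes of the clusters were weakly marked. PCDHB17P, PCDHB18P and PCDHB19P had 2.70, 4.93 and 9.41 mean normalized counts, against a median of 4.93 for the 16 beta genes, and PCDHGB8P and PCDHGB9P had 4.08 and 4.10, against 10.5 for the gamma genes. The alpha pseudogene PCDHA14, which the symbol rule for pseudogenes did not take and which was added after its value was seen, lay by a region of 2.10, against 15.7 for the alpha genes. How much of this sequence is shared with coding members was not counted, and its part in the levels was not tested.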
